A study of Mus musculus with 6 samples.

Results

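The genes described here are 52 lysosomal genes measured in polysome-bound RNA of mouse midbrain neurons, chosen by gene symbol from the 32531 gene entries of each count file. They comprise 35 genes of lysosomal hydrolases, their activators and lysosomal membrane proteins, and 17 genes of the vacuolar proton pump (V-ATPase). All 52 were in the files, and all 52 were among the 17197 entries that passed the filter on low counts. The rule that selects them reads gene symbols only, and the list was drawn up with earlier results of these data known.

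Lysosomes are membrane-bound compartments in which acid hydrolases break down proteins, sugars and lipids delivered by endocytosis and autophagy. The acid interior is made by the V-ATPase, which has a cytosolic V1 sector that splits ATP and a membrane-embedded V0 sector that moves protons. In neurons the same pump also acidifies synaptic vesicles, where the proton gradient drives neurotransmitter loading, whereas most hydrolases act in lysosomes. Inherited defects of many of these hydrolases cause storage diseases that damage the brain.

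Translating ribosome affinity purification (TRAP) was applied to the midbrain of adult, untreated control mice of the line Lhx5-TRAP DT154. In this line the ribosomal protein Rpl10a is tagged with EGFP under control of Lhx5, a LIM homeodomain gene, and tagged polysomes were pulled down with antibodies against EGFP. RNA sequencing gave 3 immunopurified libraries (IP) and 3 libraries titled Input, all of the same line, tissue and treatment. The sample type given for these 3 is Unbound, and the labels do not settle whether they hold all of the homogenate or its unbound remainder. They are called Input here, as titled.

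The data come from 1 transgenic line, so the tagged cells are those in which that insertion is active, and the labels name no animal for any library. Lhx5 itself was at 46.8, 56.0 and 49.1 CPM (counts scaled to library size) in IP replicates 1, 2 and 3 and at 3.92, 3.81 and 2.20 CPM in Input. Every IP library stood above every Input library for Lhx5. The log2 fold change was 3.93 (SE 0.23), and the adjusted p was 1.29e-05 (edgeR quasi-likelihood F test, p-values adjusted after Benjamini and Hochberg, as throughout). The libraries held 38058239 to 45841499 counts in genes. In bulk RNA of this kind, a change in how many cells of a type contribute and a change in RNA per cell cannot be told apart.

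A palindrome read by the transcription factor TFEB and its relatives, which regulate lysosomal genes, occurs in many promoters of this class, and its 8-base core TCACGTGA was searched on both strands. The window searched was 250 bases before to 50 bases after the RefSeq start on GRCm38.p6, the assembly also called mm10. A promoter entry was found for 45 of the 52 genes, and 8 of these 45 (17.8%) held the core, against 304 of 27025 genes (1.12%) in the whole promoter table and 234 of 11762 genes (1.99%) that were tested here. The stretches printed below are the 6 in which the core begins clear of the start site, shown because hydrolases, a channel and a pump subunit carry the same letters. They are read 5′ to 3′ on the gene's strand, with the core in capitals.
Ctsa: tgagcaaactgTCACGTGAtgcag
Cln3: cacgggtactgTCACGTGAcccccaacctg
Ctsd: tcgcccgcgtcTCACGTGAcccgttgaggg
Mcoln1: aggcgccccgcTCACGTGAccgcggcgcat
Atp6v1a: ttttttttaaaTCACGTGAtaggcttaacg
Gla: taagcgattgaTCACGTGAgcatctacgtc

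The Ctsa stretch lies at chr2:164833749-164833772 on the plus strand, with the core 13 bases before the start. That of Cln3 lies at chr7:126583340-126583369 on the minus strand (122 bases before), and that of Ctsd at chr7:142387908-142387937 on the minus strand (99 bases before). The Mcoln1 stretch is at chr8:3500462-3500491 on the plus strand (46 bases before), and the Atp6v1a stretch at chr16:44139373-44139402 on the minus strand (132 bases before). The Gla stretch is at chrX:134601215-134601244 on the minus strand, 228 bases before the start, and it alone of the 6 lies outside the limits of its gene in GENCODE M21. Atp6v0d1 and Atp6v0e also held the core, at or just after the start. The 6-base centre CACGTG, which the core contains, was found in 17 of 45 (37.8%), against 8.09% of the whole table and 11.2% of genes tested here. Of 89 genes from lists of other lysosomal genes, 20 (22.5%) held this centre and 8 (8.99%) held the core. The core was held by 5 of 32 hydrolase and membrane genes and by 3 of 13 pump genes with a promoter entry. Log2 fold changes between IP and Input had a median of 0.45 over the 8 genes with the core and 0.44 over the 37 without it.

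The question put to these genes was whether the RNA on tagged ribosomes differed from the Input RNA, and whether hydrolases and membrane proteins differed in this from the pump. Of the 17 pump genes, 12 were higher in IP, 1 was lower and 4 passed in neither direction, whereas 8 of the 35 hydrolase and membrane genes were higher, 2 were lower and 25 passed in neither direction. The background over all genes tested was 26.0% higher in IP and 27.9% lower. Thus in this fit, on group alone, the 70.6% of pump genes that were higher lay above the background. The 22.9% of hydrolase and membrane genes lay near it in the same fit. With the replicate number as a block, as described below, 18 of these 35 were higher, beside 28.0% of all genes. Lower calls were rare in both groups, at 5.88% of pump genes and 5.71% of the others. The median log2 fold change was 0.69 over pump genes (a fold of 1.62), 0.41 over hydrolase and membrane genes (1.33) and -0.01 over all genes tested. Changes shown to exceed 2-fold were found for 2 pump genes upward and 1 downward, beside 2.25% of all genes upward and 12.9% downward (edgeR's glmTreat). For the 35 others the number was 0, with 1 upward and 0 downward at an unadjusted p under 0.05.

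Same-numbered IP and Input libraries share a lane number in their labels, which was taken as a shared sequencing lane. The pairs were therefore also compared within these lanes. The median log2 difference over pump genes was 0.73, 0.62 and 0.78 in pairs 1, 2 and 3, and over hydrolase and membrane genes it was 0.51, 0.30 and 0.26. The IP library was the higher in all 3 pairs for 15 pump genes and the lower for 1, and for 21 and 8 of the 35 others, where the background was 38.2% and 38.7%. With the replicate number as a block in the model, 18 hydrolase and membrane genes were higher and 3 lower, and 13 pump genes were higher and 1 lower, beside 28.0% and 28.4% of all genes. The 10 further hydrolase and membrane genes that were higher with the block were Ctsa, Ctsb, Ctsd, Ctsf, Ctsl, Ppt1, Lipa, Lamp1, Scarb2 and Psap. Other genes overlap 17.4%, 12.8%, 34.4% and 26.9% of the exonic length of Ctsa, Ctsb, Ctsd and Ctsl. The alternative limited to members with under 10% overlap used the fit without the block only. Cd63 was lower and Atp6ap1 higher with the block but not without it. Over all 18 alternative fits, Cd63 passed in 7 and Atp6ap1 in 4. IP and Input libraries did not overlap for 12 pump genes upward and 1 downward, and for 7 hydrolase and membrane genes upward and 3 downward, where 30.7% and 32.8% of all genes did not overlap. Upper-quartile scaling left 3 hydrolase and membrane genes higher and 4 lower, and 12 pump genes higher and 1 lower, beside 19.9% and 32.4% of all genes.

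**Figure D1:**
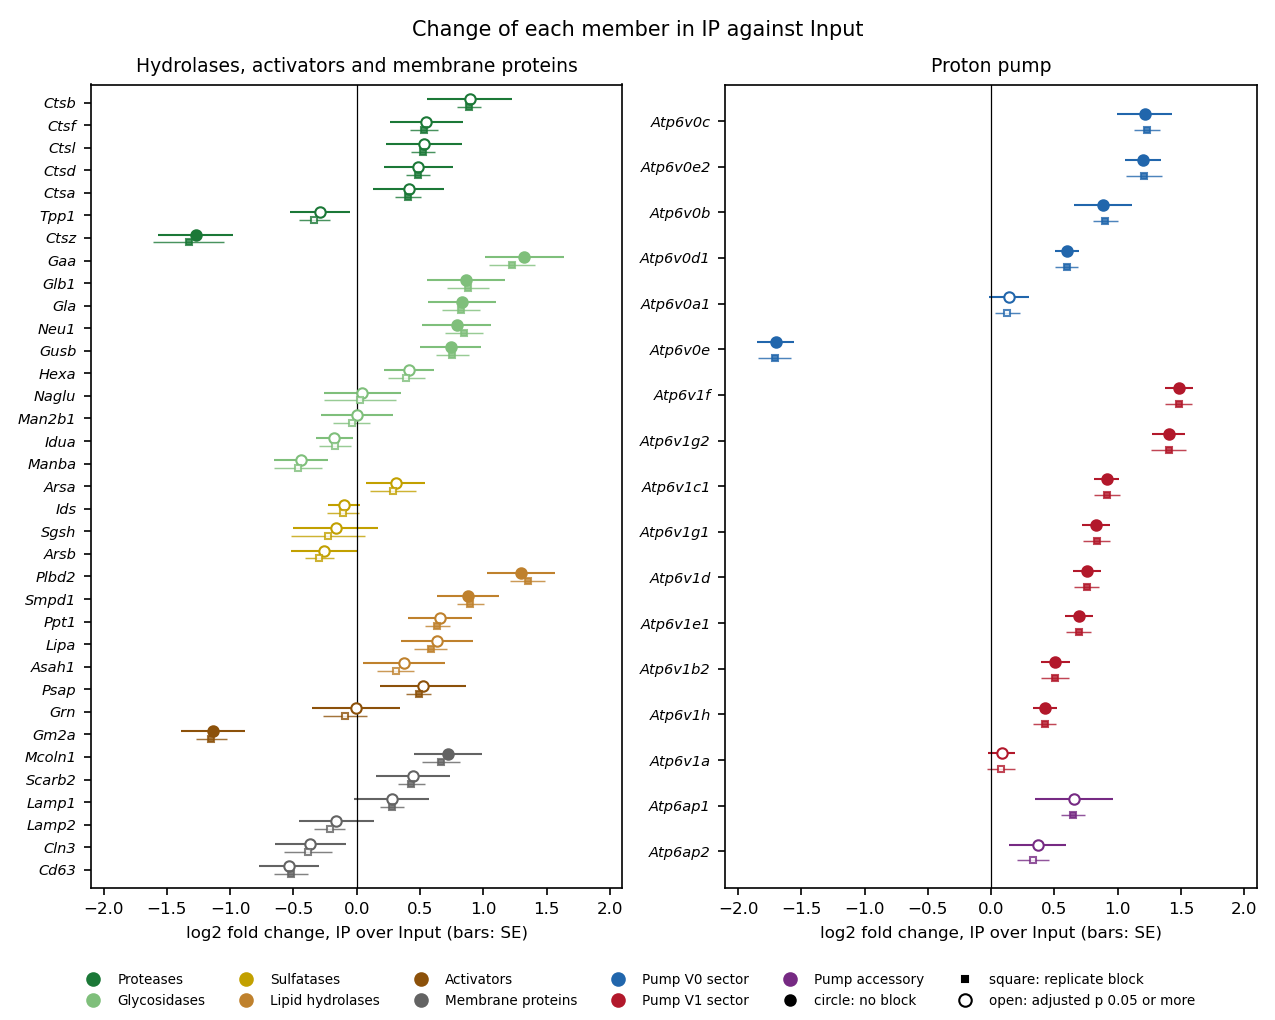
Log2 fold change between IP and Input for each of the 52 genes, colored by role, with bars of 1 SE (3 libraries per group); circles are from the fit on group alone, squares from the fit with the replicate block, and filled symbols passed an adjusted p of 0.05. V1 genes lie to the right of 0 with short bars, Atp6v0e lies far to the left at -1.70, and most hydrolase genes have longer bars on the circle than on the square.

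Lysosomal proteases were represented by 7 genes, of which 0 were higher and 1 was lower by edgeR in the fit without the block, and 5 were higher and 1 lower with it. At an unadjusted p under 0.05, 1 was higher, and DESeq2 and limma-voom called 1 and 0 higher. Ctsb, the cysteine protease cathepsin B, had the highest level per length of the 7 and was at 822, 640 and 366 CPM in IP replicates 1, 2 and 3 and at 416, 374 and 195 CPM in Input. Within each lane the IP library held more Ctsb than the Input library, yet IP replicate 3 lay below both Input replicates 1 and 2, so the groups overlapped. Its log2 fold change was 0.89 (SE 0.34, adjusted p 0.0509) without the block and 0.89 (SE 0.10, adjusted p 0.000405) with it.

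Ctsd, the aspartic protease cathepsin D, was at 213, 160 and 111 CPM in IP and at 143, 125 and 77.8 CPM in Input, again with overlapping groups and a higher IP library in every lane. The change of Ctsd was 0.49 on the log2 scale (SE 0.27, adjusted p 0.163), and 0.48 (adjusted p 0.00467) with the block. Other genes overlap 34.4% of its exonic length, and the strand setting of the counting is not given in the sources used here. Ctsl, cathepsin L, ran at 117, 99.7 and 56.6 CPM in IP and 78.4, 70.1 and 40.3 CPM in Input. The cysteine cathepsin Ctsf and the carboxypeptidase Ctsa, which also stabilizes Glb1 and Neu1, had changes of 0.55 and 0.41.

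Ctsz, a cysteine carboxypeptidase, went the other way, at 2.70, 2.93 and 1.47 CPM in IP and 5.89, 5.85 and 5.43 CPM in Input. All 3 IP libraries were below all 3 Input libraries, and Ctsz fell by 1.27 on the log2 scale (SE 0.30, adjusted p 0.00664). Tpp1, which removes tripeptides from protein ends, stood at -0.29 on the log2 scale (SE 0.24, adjusted p 0.327).

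Among 10 glycosidases, which remove sugars from glycogen, glycolipids and glycosaminoglycans, 5 were higher in IP and 0 lower, with or without the block. Gaa, the acid alpha-glucosidase that degrades lysosomal glycogen, had the highest level and the largest change of these. It was at 569, 527 and 225 CPM in IP and at 195, 191 and 142 CPM in Input. All IP libraries lay above all Input libraries, but IP replicate 3 was far below the other IP libraries. The log2 fold change of Gaa was 1.32 (SE 0.31, adjusted p 0.00732). The call was lost when both libraries of replicate 1 or of replicate 2 were left out, at 1.17 and 1.28, and when IP replicate 2 and Input replicate 3 were left out, at 1.0.

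Gla, the alpha-galactosidase that acts on globotriaosylceramide, was at 34.2, 23.5 and 18.3 CPM in IP and 16.2, 16.5 and 9.92 CPM in Input. Neu1, a sialidase, was at 45.8, 44.3 and 32.5 CPM in IP and 25, 31.8 and 14.2 CPM in Input. For both genes the lowest IP library was just above the highest Input library. Their changes were 0.83 (SE 0.27, adjusted p 0.0288) for Gla and 0.79 (SE 0.27, adjusted p 0.0378) for Neu1.

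Glb1, the beta-galactosidase, and Gusb, the beta-glucuronidase, rose by 0.86 (SE 0.31) and 0.74 (SE 0.24) on the log2 scale, with adjusted p of 0.0413 and 0.0279. These 4 calls were lost under upper-quartile scaling and when IP replicate 1, IP replicate 2 or Input replicate 3 was left out, with changes between 0.51 and 0.87. Hexa, a gene of ganglioside breakdown, had a change of 0.41 (adjusted p 0.106), and Naglu and Man2b1 had changes of 0.05 and 0.00. Idua and Manba had changes of -0.18 and -0.44. Manba, a beta-mannosidase, was at 7.72, 9.13 and 5.55 CPM in IP and 11, 9.77 and 9.55 CPM in Input, without overlap but with an adjusted p of 0.113.

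None of the 4 sulfatases passed in either direction by edgeR with or without the block, by DESeq2, by limma-voom or at an unadjusted p under 0.05. Ids, the iduronate sulfatase of heparan and dermatan sulfate breakdown, was among the most abundant of the 52 genes, at 1213, 1047 and 923 CPM in IP and 1042, 1220 and 1153 CPM in Input. The groups overlapped, and its log2 fold change was -0.10 (SE 0.13, adjusted p 0.523). Arsa, which removes sulfate from the myelin lipid sulfatide, was at 9.73, 8.13 and 5.92 CPM in IP and 7.19, 6.60 and 5.43 CPM in Input, a change of 0.31 (SE 0.23). Arsb, the sulfatase of dermatan sulfate, was at 66.8, 76.0 and 37.4 CPM in IP and 76.8, 84.3 and 54.3 CPM in Input, a change of -0.26 (SE 0.26). Both overlapped between groups. Sgsh, the sulfamidase of heparan sulfate, was the least abundant per length and had a change of -0.17 (SE 0.34).

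Genes acting on lipids comprised 5 members, of which 2 were higher without the block and 4 with it. Plbd2, a phospholipase B-like protein of the lysosome, was at 133, 119 and 90.8 CPM in IP and 56.8, 54.5 and 27.7 CPM in Input. All IP libraries were above all Input libraries, and the log2 fold change was 1.30 (SE 0.27, adjusted p 0.00368). Plbd2 lies at chr5:120483282-120503625 on the minus strand (GENCODE M21, GRCm38), with 42.1 kb between it and Lhx5, the gene that drives the tag, and no other of the 52 genes lies within 1 Mb of Lhx5. Whether the transgene adds to its reads was not tested.

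Smpd1, the acid sphingomyelinase, was at 89.9, 72.3 and 55.0 CPM in IP and 48.5, 43.0 and 26.5 CPM in Input. The groups did not overlap, and Smpd1 rose by 0.88 (SE 0.25, adjusted p 0.0158). Leaving out IP replicate 1 or IP replicate 2 gave 0.71 and 0.85 and ended the call. Ppt1, the thioesterase that strips palmitate from proteins, was at 245, 172 and 128 CPM in IP and 142, 117 and 86.8 CPM in Input, with overlap, at 0.66 (SE 0.25, adjusted p 0.0529) and at 0.64 (adjusted p 0.00163) with the block. The acid lipase Lipa had a change of 0.64 (adjusted p 0.0885, and 0.00804 with the block). Asah1, the acid ceramidase, was at 61.6, 38.2 and 24.1 CPM in IP and 38.0, 35 and 22.5 CPM in Input, a change of 0.37 (SE 0.33, adjusted p 0.358).

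The 3 activator genes differed in direction. Psap, the precursor of the saposins that present sphingolipids to their hydrolases, was at 365, 342 and 158 CPM in IP and 244, 234 and 124 CPM in Input. IP replicates 1 and 2 were the highest of the 6 libraries, but IP replicate 3 lay between Input replicates. The change of Psap was 0.52 (SE 0.34, adjusted p 0.224), and 0.49 (SE 0.10, adjusted p 0.00481) with the block. Gm2a, which presents ganglioside GM2 for breakdown, was at 19.2, 22.5 and 12.4 CPM in IP and 47.6, 42.7 and 28.7 CPM in Input. Every IP library was below every Input library, and Gm2a fell by 1.14 (SE 0.25, adjusted p 0.00539). Hexa, which acts in the same step, had a change of 0.41. Grn, the progranulin gene, was at 23.9, 25.4 and 9.61 CPM in IP and 22.3, 22.5 and 14.3 CPM in Input, a change of -0.01 (SE 0.34).

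Of 6 lysosomal membrane protein genes, 1 was higher and none lower without the block, also at an unadjusted p under 0.05, and 3 were higher and 1 lower with it. DESeq2 called 1 higher, and limma-voom 0. Lamp1, a major glycoprotein of the lysosomal membrane, was at 476, 377 and 236 CPM in IP and 372, 337 and 190 CPM in Input. The groups overlapped, and its change was 0.28 (SE 0.30, adjusted p 0.457), or 0.28 (adjusted p 0.0422) with the block. Its relative Lamp2, which has a part in autophagy, was at 105, 81.4 and 44.8 CPM in IP and 104, 92.0 and 62.6 CPM in Input, a change of -0.16 (SE 0.30, adjusted p 0.670).

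Mcoln1, the lysosomal cation channel TRPML1, was at 41.8, 35.8 and 19.6 CPM in IP and 21.8, 21.2 and 15.9 CPM in Input. IP replicate 3 was below Input replicates 1 and 2, so the groups overlapped although Mcoln1 passed, at 0.72 (SE 0.27, adjusted p 0.0479). It no longer passed under RLE scaling (0.69), limma-voom (0.66) or upper-quartile scaling (0.57). Cd63, a tetraspanin of late endosomes, was at 15.7, 14.2 and 10.3 CPM in IP and 21.6, 23.1 and 13.5 CPM in Input, a change of -0.53 (SE 0.24, adjusted p 0.0896), and -0.52 (adjusted p 0.0148) with the block. Scarb2, the receptor that carries glucocerebrosidase to lysosomes, and Cln3, the gene of juvenile Batten disease, had changes of 0.44 and -0.37.

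The V0 sector of the pump was represented by 6 genes, of which 4 were higher in IP, 1 was lower and 1 passed in neither direction. Atp6v0c, the main subunit of the proteolipid ring that carries protons, was at 106, 89.8 and 71.3 CPM in IP and 47.8, 39.6 and 27.8 CPM in Input. The groups were well apart, and Atp6v0c rose by 1.21 (SE 0.22, adjusted p 0.00190). Atp6v0b, another ring subunit, was at 135, 131 and 90.3 CPM in IP and 76.6, 72.2 and 44.2 CPM in Input, higher by 0.88 (SE 0.23, adjusted p 0.0113). Without IP replicate 2 its change was 0.78 and the call was lost. Atp6v0d1, the subunit that couples the ring to the central stalk, was at 265, 286 and 287 CPM in IP and 182, 186 and 186 CPM in Input. Its libraries hardly varied within a group, and its change was 0.60 (SE 0.10, adjusted p 0.00109).

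The small subunit e is encoded by a pair of genes, Atp6v0e and Atp6v0e2, that changed in opposite directions. Atp6v0e was at 10.8, 8.35 and 10.5 CPM in IP and 34.2, 31.3 and 31.2 CPM in Input, and it fell by 1.70 (SE 0.15, adjusted p 6.62e-05), the largest fall of the 52 genes. Atp6v0e2 was at 367, 323 and 385 CPM in IP and 171, 170 and 128 CPM in Input, and it rose by 1.20 (SE 0.14, adjusted p 0.000280). Neither gene overlapped between groups. Atp6v0a1, the subunit through which protons cross the membrane, was at 262, 232 and 177 CPM in IP and 214, 218 and 177 CPM in Input, with a change of 0.14 (SE 0.16, adjusted p 0.479).

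Of 9 genes of the V1 sector, 8 were higher in IP and 0 lower, and the block changed none of these calls. Atp6v1f, a subunit of the central rotor stalk, was at 106, 103 and 120 CPM in IP and 40.8, 39.1 and 37.8 CPM in Input. The log2 fold change of Atp6v1f was 1.49 (SE 0.11, adjusted p 3.43e-05), the largest rise among the 52, and it was shown to exceed 2-fold (adjusted p 0.00317 by edgeR's glmTreat). Atp6v1g2, a G subunit of the outer stalk found mainly in neurons, was at 1540, 1523 and 1856 CPM in IP and 628, 689 and 546 CPM in Input. It rose by 1.40 (SE 0.13, adjusted p 8.92e-05), also more than 2-fold (adjusted p 0.0136 by glmTreat). For both genes all IP libraries stood far above all Input libraries.

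Outer stalk genes Atp6v1c1, Atp6v1g1 and Atp6v1e1 rose by 0.91, 0.83 and 0.69 on the log2 scale, and Atp6v1d of the rotor by 0.76. Atp6v1b2, the non-catalytic nucleotide-binding subunit, was at 740, 649 and 829 CPM in IP and 548, 512 and 499 CPM in Input, a change of 0.51 (SE 0.12, adjusted p 0.00633). Atp6v1h, which regulates the coupling of the sectors, had a change of 0.42 (SE 0.10, adjusted p 0.00585). Atp6v1a, the catalytic subunit that splits ATP, was at 377, 354 and 429 CPM in IP and 364, 380 and 351 CPM in Input. IP replicate 2 lay below Input replicate 1, and its change was 0.08 (SE 0.11, adjusted p 0.540). It was thus the only V1 gene that did not pass, and its sign was negative under upper-quartile scaling (-0.07) and library totals (-0.06).

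The accessory proteins of the pump followed the hydrolases more than the V1 sector in their spread between libraries. Atp6ap1, an assembly factor of V0, was at 458, 407 and 219 CPM in IP and 277, 267 and 144 CPM in Input. Atp6ap2, also known as the prorenin receptor, was at 139, 124 and 73.8 CPM in IP and 91.8, 97.2 and 72.3 CPM in Input. Both had overlapping groups, at 0.65 (SE 0.31, adjusted p 0.106) for Atp6ap1 and 0.37 (SE 0.23, adjusted p 0.202) for Atp6ap2. With the block, Atp6ap1 was higher by 0.64 (SE 0.09, adjusted p 0.00121) and Atp6ap2 did not pass (adjusted p 0.0608).

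**Figure D2:**
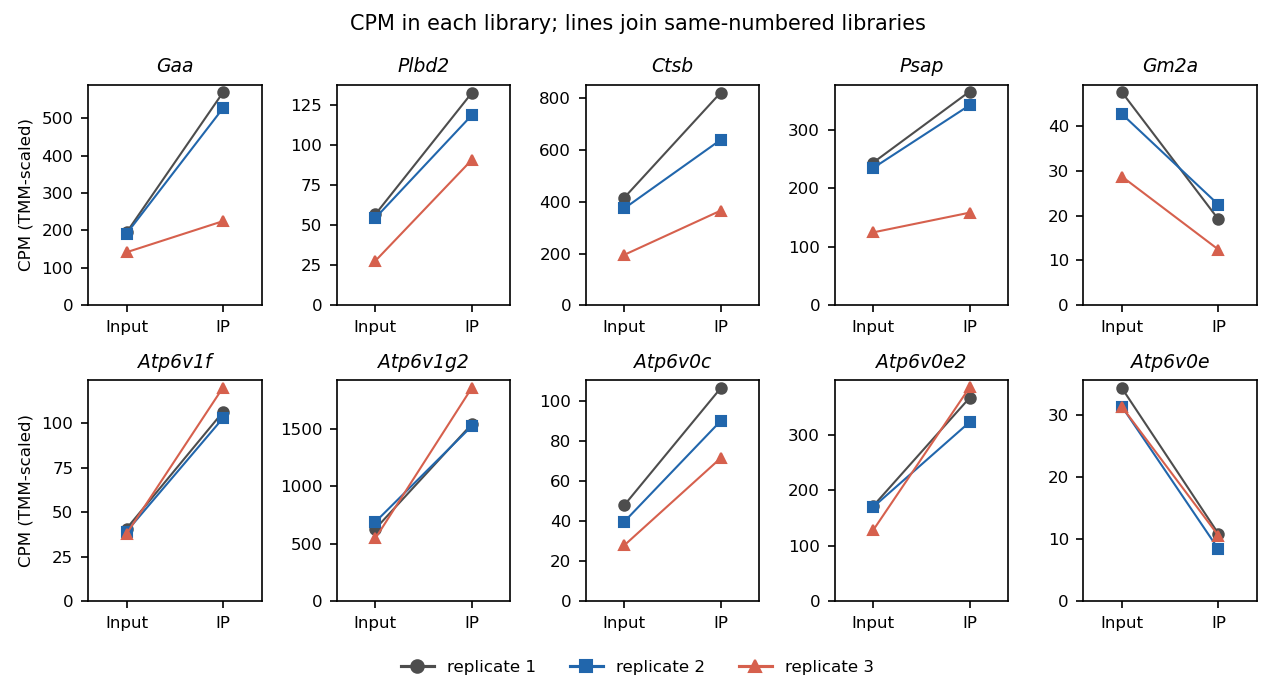
Level in CPM (linear axis from 0) of selected hydrolase, activator and pump genes in each of the 6 libraries, with same-numbered IP and Input libraries joined by a line. For Ctsb, Gaa and Psap replicate 3 is the lowest library of each group, whereas for Atp6v1g2 and Atp6v1f IP replicate 3 is the highest of the IP libraries.

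For 3 pairs of related genes the balance within the pair was measured in each library. Atp6v0e2 took 97.1%, 97.5% and 97.3% of the counts of Atp6v0e and Atp6v0e2 in IP and 83.4%, 84.4% and 80.4% in Input. The mean was 97.3% ± 0.174 against 82.7% ± 2.11 (SD of 3 libraries each), a difference of 14.6 percentage points. Atp6v1g2 took 95.8%, 96.1% and 96.5% of the counts of Atp6v1g1 and Atp6v1g2 in IP and 94.0%, 94.9% and 94.1% in Input, a difference of 1.77 points. Both G genes rose, and the ratio of Atp6v1g2 to Atp6v1g1 counts was 24.8 ± 2.54 in IP against 16.7 ± 1.67 in Input (SD of 3 libraries each). Lamp2 took 18.1%, 17.8% and 15.9% of the counts of Lamp1 and Lamp2 in IP and 21.8%, 21.4% and 24.8% in Input, a difference of -5.41 points. IP and Input shares did not overlap for any of the 3 pairs, and a two-sided exact permutation test gave p = 0.1 for each, the smallest value that 3 against 3 libraries allow, and 0.1 after adjustment over the 3 pairs. Per exonic length, the IP and Input shares were 98.3% and 88.2% for Atp6v0e2, 91.8% and 88.3% for Atp6v1g2, and 5.52% and 7.59% for Lamp2.

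**Figure D3:**
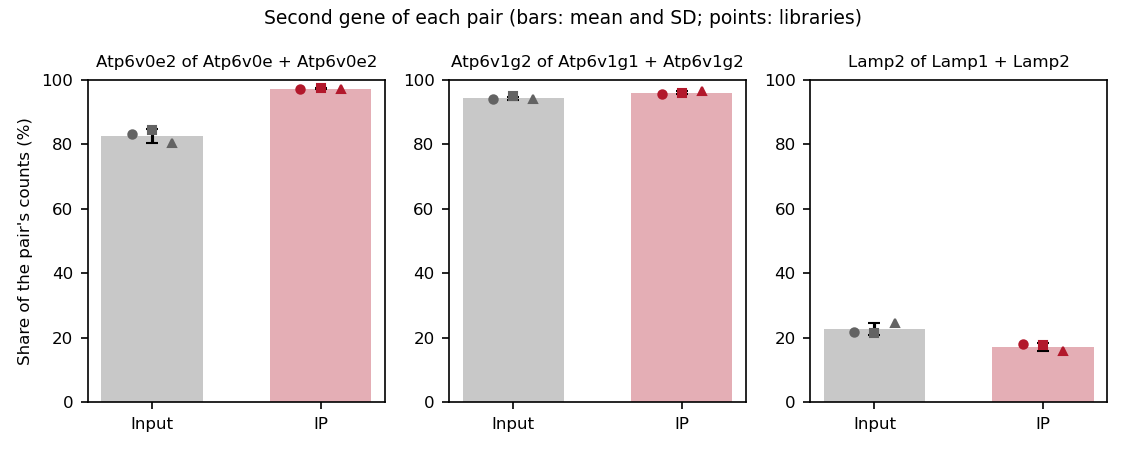
Share (percent) of each pair's counts taken by Atp6v0e2, Atp6v1g2 and Lamp2 in the 3 IP and 3 Input libraries, with points for libraries, bars for the mean and lines for the SD. The IP points of Atp6v0e2 lie at 97.1 to 97.5 and its Input points at 80.4 to 84.4, without overlap.

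A pattern seen after the values were known was that replicate 3 held less hydrolase RNA than the other replicates in both groups. Of the 35 hydrolase and membrane genes, 34 (97.1%) were lowest in replicate 3 in IP and also in Input, and the exception was Ids, whose Input replicate 3 was not the lowest. The same was true of 5 of 17 pump genes (29.4%) and of 15.4% of all genes tested. The 5 pump genes were Atp6v0a1, Atp6v0b, Atp6v0c, Atp6ap1 and Atp6ap2, while 0 of the 9 V1 genes showed it. The median log2 difference of replicate 3 from the mean of replicates 1 and 2 was -0.81 in IP and -0.64 in Input over hydrolase and membrane genes. Over V1 genes it was 0.17 and -0.08, over V0 genes -0.20 and -0.35, over the accessory genes -0.91 and -0.65, and over all genes tested 0.07 and 0.00.

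The same difference was measured for single genes. Grn and Gaa had the largest shortfalls in IP replicate 3, at -1.35 and -1.28, and Ctsb and Plbd2 the largest in Input replicate 3, at -1.02 and -1.0. Within V0, Atp6v0b, Atp6v0a1 and Atp6v0c were at -0.56, -0.48 and -0.45 in IP, and Atp6v0d1, Atp6v0e and Atp6v0e2 at 0.06, 0.15 and 0.16. Other lysosomal enzyme genes outside the 52 showed it as well, with 21 of 33 lowest in replicate 3 in both groups (63.6%), as did 16 of 28 other lysosomal membrane genes (57.1%). By contrast, 0 of 11 other pump genes and 6 of 32 sorting and regulation genes (18.8%) did.

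Replicate 3 also differed in other respects. Its Input library held 1510 CPM summed over 9 striatal markers, against 407 and 218 CPM in Input replicates 1 and 2, and 151 CPM summed over 8 midbrain monoamine markers, against 458 and 378 CPM. Choroid and ependymal markers summed to 1410 CPM in Input replicate 3 and to 406 and 48.1 CPM in Input replicates 1 and 2. The summed microglial markers were at 34.5, 22.8 and 18.0 CPM in IP and 181, 139 and 107 CPM in Input. The part that lane, dissection or cell makeup had in the low hydrolase values of replicate 3 was not tested.

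**Figure D4:**
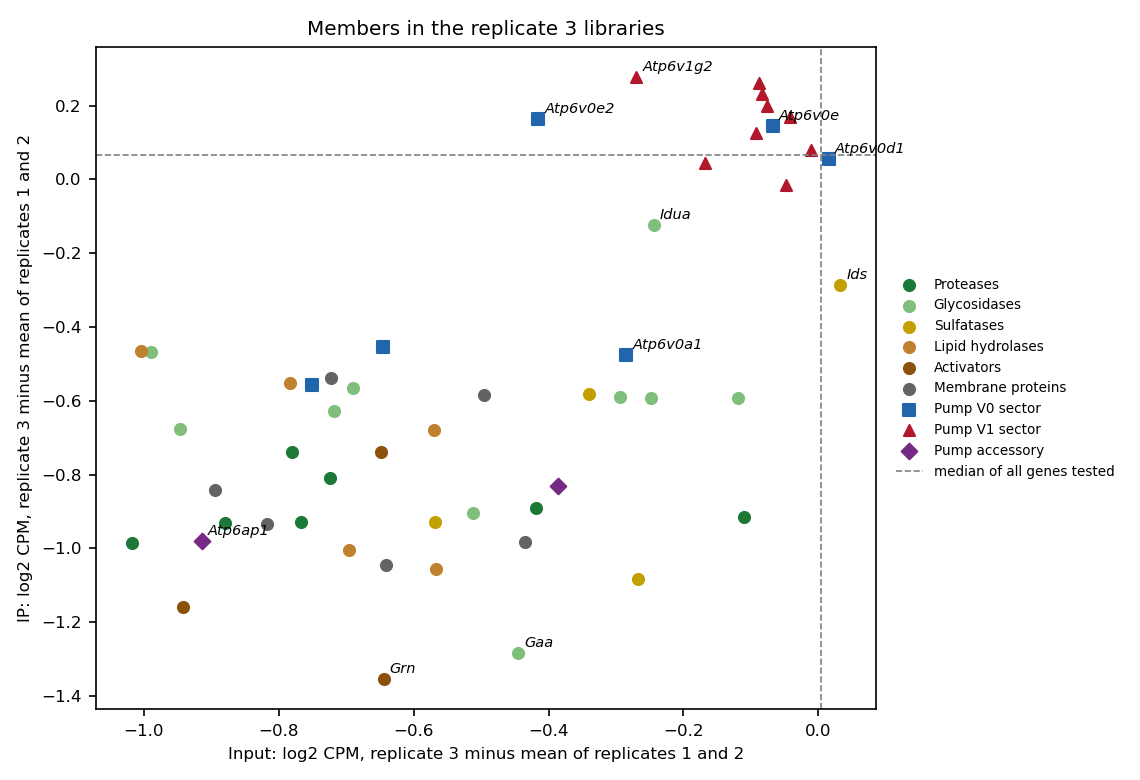
Log2 CPM of replicate 3 minus the mean of replicates 1 and 2, in Input (horizontal axis) and in IP (vertical axis), with 1 point per gene and dashed lines at the medians of all genes tested. Most hydrolase, activator and membrane genes lie to the lower left, the V1 genes lie nearer to the crossing of the dashed lines and to the left of the vertical line, and the accessory genes lie among the hydrolases.

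The median SE of a log2 fold change over hydrolase and membrane genes was 0.28 without the block and 0.13 with it, and over pump genes it was 0.12 and 0.10. The ratio of the SE without the block to that with it had a median of 1.96 over hydrolase and membrane genes, 1.08 over pump genes and 1.05 over all genes tested. With both libraries of replicate 3 left out, 17 of 35 hydrolase and membrane genes were higher in IP and 3 lower, where 26.3% and 27.3% of all genes were. With those of replicate 1 left out, 2 were higher, where 2847 of 17365 genes tested were. With those of replicate 2 left out, 1 was higher, where 3209 of 17476 genes were. Calls over all genes thus also fell in these 2 fits.

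Summed over the 35 hydrolase and membrane genes, libraries held 5100, 4316 and 2799 CPM in IP and 3465, 3459 and 2534 CPM in Input. The 17 pump genes summed to 6382, 5907 and 6424 CPM in IP and 3767, 3773 and 3281 CPM in Input. Pump RNA exceeded hydrolase and membrane RNA in all 6 libraries, by 1.25, 1.37 and 2.30 times in IP and 1.09, 1.09 and 1.29 times in Input. The IP library had the higher ratio in each of the 3 lanes, and IP replicate 1 was below Input replicate 3.

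Levels were compared between genes as CPM per kilobase of merged exons. Atp6v1g2 had the highest level in both groups, at 653 ± 74.7 in IP and 248 ± 28.6 in Input (mean ± SD of 3 libraries, as are the others). Ids came next in both, at 208 ± 28.5 in IP and 223 ± 17.6 in Input, and in Input these levels of Atp6v1g2 and Ids lay within their spread of each other. In Input, Lamp1 (112 ± 36.0), Atp6v0d1 (103 ± 1.53) and Atp6v1b2 (98.0 ± 4.82) followed and did not differ beyond their spread. In IP, Atp6v0d1 (156 ± 6.79), Atp6v0e2 (150 ± 13.5), Atp6v1b2 (139 ± 17.0) and Lamp1 (136 ± 45.0) followed, likewise within their spread. Most other V1 genes stood between 58.2 and 134 per kilobase in IP, with Atp6v1h at 14.3 ± 0.567.

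Among hydrolases, Ctsb and Gaa were at 101 ± 38.0 and 92.0 ± 39.2 in IP, and Ctsd and Ppt1 at 68.7 ± 21.8 and 49.5 ± 16.1. At the low end, Naglu was at 1.06 ± 0.279 in IP and 1.02 ± 0.176 in Input, and Sgsh was last of the 52 in both, at 0.783 ± 0.293 and 0.878 ± 0.161. Atp6v0e moved from rank 32 of 52 in Input to 45 in IP, and Gm2a from 28 to 41.

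**Figure D5:**
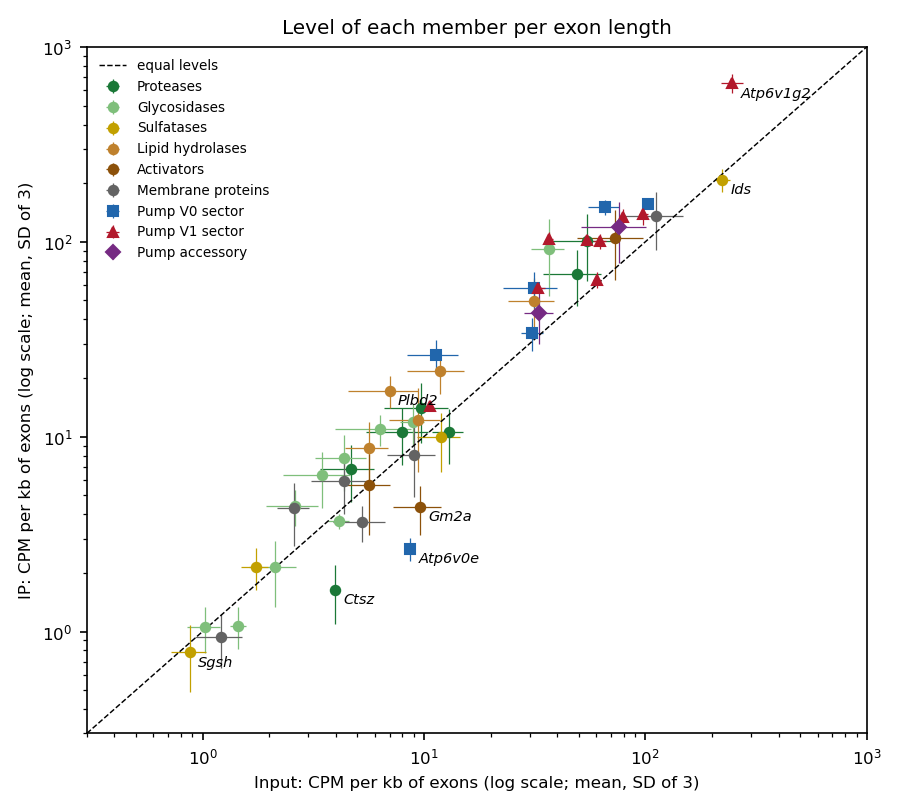
Level of each gene in Input and in IP as CPM per kilobase of exons (both axes logarithmic; mean and SD of 3 libraries), with a dashed line where both are equal. Atp6v1g2 lies above all others in IP at 653, and Atp6v0e, Gm2a and Ctsz lie furthest below the line.

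Other genes of the pathway were counted from lists that hold none of the 52. Of 33 other lysosomal enzyme genes, IP was higher for 5 (15.2%) and lower for 10 (30.3%), and with the block for 9 and 11. Of all genes tested, 26.0% were higher and 27.9% lower, or 28.0% and 28.4% with the block. The share of lower enzyme genes thus lay near the background. Arsg, a sulfatase, fell by 1.69 (SE 0.17), Galc, the galactosylceramidase of myelin lipid breakdown, fell by 0.79 (SE 0.25), and the cathepsin gene Ctso fell by 2.42 (SE 0.40). Hgsnat, the acetyltransferase of heparan sulfate breakdown, rose by 1.14 (SE 0.30). Ctss, a cathepsin of microglia, and the cathepsins Ctsh and Ctsc, named after their values were seen, had log2 fold changes of -3.37, -4.55 and -2.91. Their SEs were 0.39, 0.68 and 0.52. In IP, Ctsh was at 0.263, 0.0733 and 0.0233 CPM. For IP replicate 3, 3 counts correspond to 0.0654 CPM on the unscaled library total. Ctsc was at 0.621, 0.391 and 0.163 CPM in IP, so the size of these 2 falls rests on few counts. Among 28 other lysosomal membrane genes, 7 were higher and 8 lower. Npc1, the cholesterol exporter, fell by 0.88 (SE 0.30), the nucleoside transporter Slc29a3 fell by 1.68 (SE 0.19), and the endolysosomal cation channel Tpcn1 fell by 0.84 (SE 0.13). Laptm4b rose by 0.93 (SE 0.32).

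Of 11 other pump genes tested, which comprise rarer subunit isoforms, assembly factors and regulators, 4 were higher (36.4%) and 2 lower (18.2%). Over all genes tested these shares were 26.0% and 27.9%. Rogdi, a subunit of the complex that regulates the joining of V1 and V0, rose by 1.01 (SE 0.11), and the assembly factors Tmem199 and Vma21 rose by 1.06 (SE 0.14) and 0.77 (SE 0.13). Dmxl1, of the same regulatory complex, fell by 0.46 (SE 0.10), and Tcirg1, the V0 isoform of osteoclasts and immune cells, fell by 1.19 (SE 0.36). Atp6v1e2, the testis isoform, had 0 counts in all 6 libraries. Among 32 genes of lysosomal sorting and regulation, 20 were higher and 1 lower (62.5% and 3.12%), with a median log2 fold change of 0.52. Ap1s2, an adaptor subunit, rose by 1.87 (SE 0.10), and the nutrient-sensing GTPase genes Rragc and Rraga rose by 0.84 (SE 0.12) and 0.52 (SE 0.10). All 5 Lamtor genes, which anchor these GTPases to the lysosome, were higher, by 0.79 to 1.39. Tfeb, the transcription factor of lysosomal genes, fell by 1.34 (SE 0.37), at 1.43, 0.977 and 2.24 CPM in IP and 4.18, 4.54 and 3.04 CPM in Input, and its relative Tfe3 rose by 0.79 (SE 0.11).

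Markers of other cell types moved in the same comparison. Microglial markers were lower in IP for 17 of 18 genes, with summed levels of 18.0 to 34.5 CPM in IP and 107 to 181 CPM in Input. Oligodendrocyte markers were lower for 14 of 14 (424 to 578 against 4950 to 5950 CPM), astrocyte markers for 13 of 15 (1030 to 1160 against 2330 to 3250 CPM), and vascular markers for 12 of 14 (12.2 to 15.8 against 51.9 to 107 CPM). Within the astrocyte sums, Aldoc, a marker that was not lower, had means of 605 CPM in IP and 532 CPM in Input. The median log2 fold change over the 15 astrocyte markers was -2.71. Oligodendrocyte precursor markers were lower for 6 of 7 (26.8 to 34.5 against 242 to 276 CPM). Choroid and ependymal markers were lower for 5 of 8, at 22.1 to 51.1 CPM in IP and 48.1 to 1410 CPM in Input. Pan-neuronal markers were higher for 17 of 20 and lower for 1, at 32200 to 37500 CPM in IP and 14600 to 19400 CPM in Input. Some genes of the other lysosomal lists, Ctss, Cd68 and Laptm5 among them, are in the microglial list as well. None of the markers was at 0 in all libraries of a group, and the part of these cell types in the changes of Ctsz, Gm2a, Atp6v0e and the other members was not tested. Purkinje cell markers summed to 1700 CPM in IP replicate 2, against 517 and 518 CPM in the other IP libraries. With that library left out, 2 hydrolase and membrane genes were higher in IP, beside 3847 of 17834 genes tested. With IP replicate 1 left out instead, the number was 2, beside 3901 of 17829. The part of Purkinje cell RNA in the changes of the members was not tested.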

How the data were processed

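RNA from 3 IP and 3 Input libraries was sequenced. Each deposited file lists whole-number read counts by gene symbol for 1 library, without normalization. The submitters' processing notes name STAR 2.0.0e, HTSeq and mm10. Which annotation, strand setting and mode the counting used is not given in the sources used here. Ambiguous reads made up 1.63% ± 0.0460 of IP counts and 9.35% ± 1.48 of Input counts (SD of 3 libraries), so genes that overlap others may lose unequal shares of reads. The 5 summary lines were kept out of totals and tests.

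Entries with low counts were removed with filterByExpr (minimum count 10, minimum total 15), which left 17197 and removed 15334. After TMM scaling the test was that of edgeR 4.0.16 under R 4.3.3 (robust quasi-likelihood fit, two-sided F test, group only), with Benjamini-Hochberg adjustment over all entries tested and a threshold of 0.05. Changes over 2-fold were tested with glmTreat. The SE is the log2 fold change divided by the square root of F. CPM uses TMM-scaled totals. On library totals without that scaling, 3 counts correspond to 0.0654 to 0.0788 CPM, a floor that covers counting error only. Exon lengths and overlaps came from GENCODE M21 (23155 entries matched by symbol, 772 by an older symbol), and promoters from RefSeq.

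The labels do not say that replicates came from separate animals, so p-values measure only how far these samples spread, which may be technical. Same-numbered libraries share a lane number in their labels, which was taken as a shared sequencing lane. Their deviations from group means correlated at 0.155, 0.0744 and 0.0506, and the number was used as a block in a further fit. Replicates correlated at 0.971 to 0.985 across genes (Pearson, log CPM), and chi-square per degree of freedom was 25.6 to 79.3, so no library copied another.

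The genes, lists and tests were chosen with earlier results of these data known. Named with full values were, in each role, the gene with the highest Input level per length and those with the highest and lowest change, both genes of each related pair, Plbd2 and Lhx5, and up to 3 abundant called genes in the commoner and 1 in the other direction of each pathway list. Other genes were named after their values were seen. The alternatives tried were scaling by RLE, by the upper quartile or by library totals, no low-count filter, DESeq2 1.42.0, limma-voom (limma 3.58.1), the block, members with under 10% exonic overlap, and leaving out libraries. Those added after seeing the data were leaving out both libraries of a replicate number, and limma-voom with the block. The scripts were tested on simulated counts.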

Additional observations from a re-analysis of the deposited data

How the results depend on the processing

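The number of hydrolase and membrane genes higher in IP, 8, was 3 under upper-quartile scaling, 3 with library totals only, 18 with the replicate block and 19 with limma-voom and the replicate block. It ranged from 1 to 17 when libraries were left out: 2, 2 and 17 without IP replicates 1, 2 and 3, 3 without Input replicate 3, 2, 1 and 17 without both libraries of replicates 1, 2 and 3, and 1 without IP replicate 2 and Input replicate 3. The number lower was 4 under upper-quartile scaling. Pump genes higher in IP numbered 10 to 14 in every alternative run, and lower 1. Over all genes, 2847 to 4572 were higher when libraries were left out. The median log2 fold change of hydrolase and membrane genes was 0.26 under upper-quartile scaling and 0.28 with library totals, and 0.13 to 0.65 with libraries left out. That of pump genes was 0.54 and 0.55 under these scalings, which moved the median of all genes from -0.01 to -0.17 and -0.15, and 0.55 to 0.78 with libraries left out. Of 10 hydrolase and membrane calls, 3 (Plbd2, Ctsz and Gm2a) passed in all 18 alternative fits, as did 10 of 13 pump calls. None of the 23 called genes changed sign in these fits, and 11 of the 29 others did.

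Man2b1 was at -0.033 under RLE, -0.15 under upper-quartile scaling, -0.13 with library totals, -0.033 with DESeq2, -0.047 with limma-voom, -0.040 with the replicate block and -0.014 with limma-voom and the block. Naglu was at -0.11 under upper-quartile scaling and -0.090 with library totals, Atp6v1a at -0.070 and -0.057, and Atp6v0a1 at -0.012 under upper-quartile scaling. With libraries left out, the ranges were -0.28 to 0.26 for Man2b1, -0.15 to 0.23 for Naglu, -0.46 to 0.13 for Sgsh, -0.27 to 0.0020 for Ids, -0.67 to 0.0035 for Arsb and -0.020 to 0.66 for Asah1. They were -0.037 to 0.52 for Lamp1, -0.44 to 0.13 for Lamp2, -0.46 to 0.33 for Grn, -0.020 to 0.30 for Atp6v0a1 and -0.026 to 0.20 for Atp6v1a. The cause of these changes was not tested. Ctsz, Sgsh and Naglu had the lowest counts, so depth limits their precision most.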
